A study of Mus musculus with 4 samples.

Results

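The heme synthesis enzymes described here are 8 genes, Alas1, Alas2, Alad, Uros, Urod, Cpox, Ppox and Fech, chosen by symbol as the pathway enzymes from 5-aminolevulinate synthase to ferrochelatase and not by their values. Earlier results of these data were known when the genes were chosen. All 8 genes were among the 17393 genes of the deposited table, and all 8 passed the filter on low values. RNA depleted of ribosomal RNA was sequenced from DS19 cells, a mouse erythroleukemia (MEL) line, which is a transformed erythroid precursor line. The 2 groups were wild-type cells and Wdr26-/- cells, in which the gene for a subunit of the CTLH ubiquitin ligase had been knocked out, with 2 libraries each, numbered 1 and 2. The culture description shared by both groups names 1.5% dimethyl sulfoxide, an inducer of erythroid-like differentiation in these cells, and does not state if the cells that were sequenced had been given it. Whether the knockout cells were 1 clone or a pool, and whether replicate libraries came from separate cultures, the labels do not say, so p-values here cover only the spread between these libraries, which may be technical.

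Heme is iron held in a porphyrin ring, and red cell precursors make it in large amounts for hemoglobin. The pathway starts in the mitochondrion, where 5-aminolevulinate synthase joins glycine and succinyl-CoA, goes on in the cytosol, and returns to the mitochondrion for its last steps, ending with the insertion of iron. The synthase has 2 genes: Alas1 serves cells in general and Alas2 serves the erythroid lineage. Alas2 and several later enzyme genes are known targets of the erythroid factor GATA1, and translation of Alas2 mRNA is controlled by iron through a stem-loop near its 5′ end.

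The sequences upstream of 4 members are shown because Alas2, Alad and Cpox had the largest differences between genotypes and Alas1 is the general counterpart of Alas2. Each is the 250 bases before a RefSeq transcription start (GRCm38.p6, the mm10 build), 5′ to 3′ on the gene's strand. Capitals mark GATA letters (AGATAA, with T also taken as the first base and G as the last), CACCC-box letters (CCNCNCCC) and E-box letters (CACGTG), searched on both strands, with overlapping matches merged.
Alas2, chrX:150547167-150547416, plus strand: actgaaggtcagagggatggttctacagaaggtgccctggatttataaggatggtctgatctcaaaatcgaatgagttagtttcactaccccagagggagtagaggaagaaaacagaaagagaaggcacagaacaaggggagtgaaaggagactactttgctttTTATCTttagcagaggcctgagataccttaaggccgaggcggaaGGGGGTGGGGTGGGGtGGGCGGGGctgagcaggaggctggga
Cpox, chr16:58669958-58670207, plus strand: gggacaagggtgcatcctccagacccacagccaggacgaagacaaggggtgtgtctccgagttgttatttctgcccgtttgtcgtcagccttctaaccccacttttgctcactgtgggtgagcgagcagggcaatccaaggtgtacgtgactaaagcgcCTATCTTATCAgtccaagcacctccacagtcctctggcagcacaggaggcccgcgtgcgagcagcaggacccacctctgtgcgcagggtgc
Alad, chr4:62520064-62520313, minus strand: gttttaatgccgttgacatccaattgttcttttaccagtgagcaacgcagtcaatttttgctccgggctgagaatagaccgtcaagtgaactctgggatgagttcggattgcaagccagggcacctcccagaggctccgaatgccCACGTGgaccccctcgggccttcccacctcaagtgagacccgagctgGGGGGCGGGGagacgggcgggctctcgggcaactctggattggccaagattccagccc
Alas1, chr9:106247955-106248204, minus strand: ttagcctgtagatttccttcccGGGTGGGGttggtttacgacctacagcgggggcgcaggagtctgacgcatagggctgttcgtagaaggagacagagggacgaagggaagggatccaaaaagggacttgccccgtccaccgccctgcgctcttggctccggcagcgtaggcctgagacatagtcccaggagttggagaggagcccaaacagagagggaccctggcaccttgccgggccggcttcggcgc
The Alas2 window held 1 GATA match, beginning 86 bases before the start, and 4 overlapping or adjacent CACCC matches within 42 bases of it. The Cpox window held 2 overlapping GATA matches, beginning 91 and 86 bases before the start, and no CACCC match. The Alad window held 2 overlapping CACCC matches and 1 E-box and no GATA match, and the window of a second Alad start had the same kinds of match. The Alas1 window held 1 CACCC match, and the window of a second Alas1 start held 2, with no GATA match in either. Windows were available for 7 members, and GATA letters stood in 3 of their 10 windows, those of Alas2, Cpox and a second Uros start. Across all 32851 windows of this length, 26.5% held GATA letters, 45.9% CACCC letters and 6.02% an E-box. A match describes the letters only, and binding was not measured.

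Alas2 is also shown at the site through which iron acts on its mRNA. In the longer of the annotated coding transcripts (GENCODE M21), bases 84 to 109 read as follows, with the loop of the iron-responsive element in capitals.
Alas2 mRNA: ttggttcgtcctCAGTGCagggcaac
The letters searched were C, any 5 bases, CAGTG and then A, C or T, within the first 150 bases, and 4.24% of 58797 coding transcripts held them. The libraries measured RNA and give no reading of translation.

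The targeted gene was examined first, and Wdr26 stood at 55.4 and 52.4 FPKM in wild-type cells and 9 and 7.84 FPKM in knockout cells. FPKM scales fragments to transcript length and sequencing depth, so levels of different genes can be set side by side. Single-fragment steps in the low values gave a depth of about 19900000 to 21200000 fragments per library if a transcript loses 40 bases of effective length, and 23700000 to 25600000 if it loses 200. Depth therefore varied little among the libraries, and its absolute size is approximate. The erythroid identity of the cells was visible in all libraries: all 10 erythroid markers were detected, and their summed level ran from 151000 to 204000 FPKM, most of it globin. Markers of other lineages were mostly low. The summed level of 6 granulocyte and macrophage markers was 5.6 and 5.23 FPKM in wild-type cells and 9.9 and 14.5 FPKM in knockout cells. Elane was listed at 0 throughout, and Mpo did not exceed 0.11 FPKM. The 2 markers of this list that passed the filter, Prtn3 and Cd68, were higher in both knockout libraries. Prtn3 stood at 2.88 and 3.59 FPKM in wild-type cells and 6.84 and 12.17 FPKM in knockout cells (limma adjusted p = 0.1955). Cd68 stood at 1.74 and 1.11 FPKM in wild-type cells and 2.25 and 1.88 FPKM in knockout cells. Among all genes tested, 29.9% were higher in this way. Of 5 megakaryocyte markers, Ppbp did not exceed 0.09 FPKM, whereas Itga2b was abundant. Pf4 stood at 21.35 to 58.22 FPKM, Gp9 at 8.05 to 10.52 FPKM and Gp1ba at 3.73 to 5.94 FPKM. Of the 4 that were tested, 3 were higher in both knockout libraries, and 1 when median-centred, beside 19.9% of all genes when median-centred. The sum of the 5 was 250.2 and 305 FPKM in wild-type cells and 278 and 289 FPKM in knockout cells. The 4 mast cell markers summed to at most 0.45 FPKM and the 3 lymphoid markers to at most 0.5 FPKM, with Cpa3 and Cd3e listed at 0 throughout. What part cells of other lineages have in the enzyme values was not tested.

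Levels along the pathway were very uneven. Alas2 exceeded each of the other enzyme genes by 9.91-fold or more in every library. The 5 genes Alad, Urod, Cpox, Ppox and Fech lay between 135 and 352 FPKM in every library, and Uros and Alas1 lay between 10.15 and 16.2 FPKM. Alas2 was the 8th most abundant gene of the table in both wild-type libraries and the 13th in both knockout libraries. It made up 73.6% and 76.1% of the summed FPKM of the 8 genes in wild-type cells and 73.1% and 76.7% in knockout cells. In wild-type cells the order of means was Alas2, Alad, Fech, Cpox, Ppox, Urod, Uros and Alas1, and only Fech and Cpox overlapped as neighbours. In knockout it was Alas2, Fech, Alad, Ppox, Cpox, Urod, Uros and Alas1. There the ranges of Alad and Ppox, Ppox and Cpox, Cpox and Urod, and Uros and Alas1 overlapped. More neighbours thus overlapped in knockout cells than in wild-type cells. Neighbours were set by the order of means within each genotype, so the pairs compared were not all the same. In knockout cells Fech stood apart above Alad by 1.48-fold, whereas in wild-type cells the mean of Alad stood above that of Fech by 1.105-fold. The wild-type order was narrow, because in wild-type library 2 Alad and Fech were nearly equal, at 325.4 and 323.6 FPKM.

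**Figure D1:**
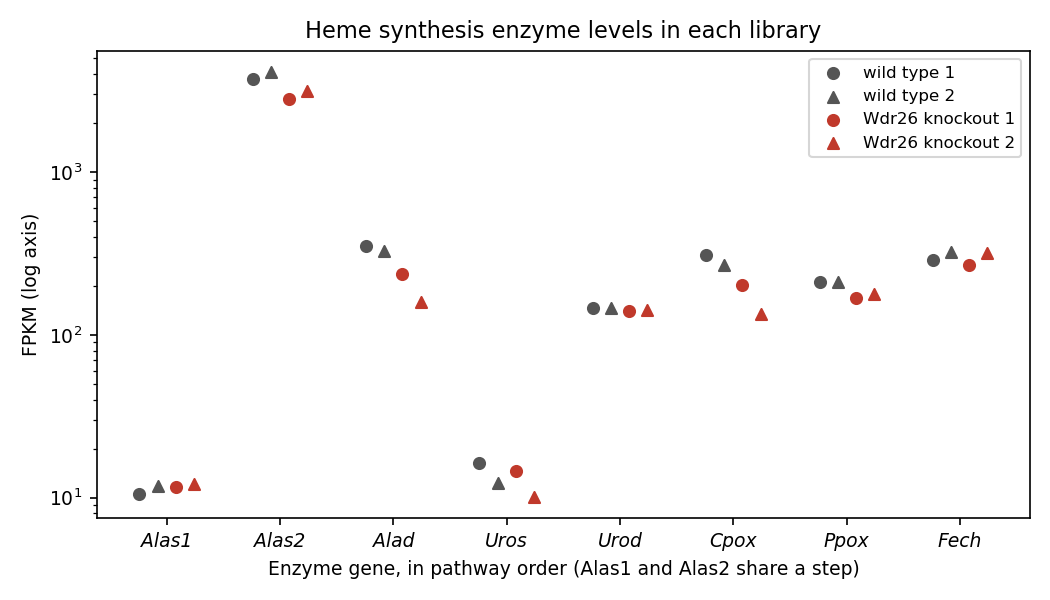
FPKM on a log axis for each of the 8 enzyme genes in pathway order, with 1 point per library (grey wild type, red knockout, circles library 1, triangles library 2). Alas2 lies between 2829.8 and 4123 FPKM, about an order of magnitude above the others, and Uros and Alas1 lie between 10.15 and 16.2 FPKM.

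Knockout was compared with wild type to ask how loss of Wdr26 bears on the RNA of these cells. No enzyme gene passed the test over all genes, and the differences had the same direction in most of them. Of the 8 members, 0 passed (limma on log2(FPKM + 1), Benjamini-Hochberg adjusted p under 0.05), where 10 of 10670 genes tested passed, or 0.0937%. Without that adjustment 2 members, Alad and Cpox, had p under 0.05 and were lower, against 2.4% of all genes tested. In either direction the share of all genes was 11.4%. In 5 members (Alas2, Alad, Urod, Cpox and Ppox) both knockout libraries lay below both wild-type libraries, and in 0 did both lie above. Among all genes tested, 10.8% lay below in this way and 29.9% above. With the libraries centred on their medians the shares of all genes were 20.1% and 19.9%, and with globin genes removed and totals rescaled they were 15.2% and 22.3%. The same 5 members lay below, and 0 above, under both scalings. The median log2 change of the 8 members was −0.24, beside 0.07 over all genes tested. Fewer cells of a type and less RNA per cell cannot be told apart in bulk samples. Among the erythroid markers, 6 of 10 were also lower in both knockout libraries, with a median log2 change of −0.34. Of the 10, the log2 difference was widest for Slc4a1, the band 3 anion exchanger gene, at 436 and 285 FPKM in wild-type cells and 48.6 and 6.7 FPKM in knockout cells (log2 change −4.18, SE 0.80, limma adjusted p = 0.166). Epb42, a membrane skeleton protein gene, gave 29.9 and 18.4 FPKM in wild-type cells and 17.7 and 7.13 FPKM in knockout cells (limma adjusted p = 0.449). The part of the erythroid markers in the enzyme result was not tested.

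Summed over the 8 genes, the level was 5059 and 5420.4 FPKM in wild-type cells and 3872 and 4090.4 FPKM in knockout cells. The knockout mean of 3981 ± 154 FPKM (SD, n = 2) amounted to 76.0% of the wild-type mean, 5239.5 ± 256 FPKM (SD, n = 2). The sum of the 7 genes without Alas2 was 1338 and 1298 FPKM in wild-type cells and 1042 and 955 FPKM in knockout cells, or 75.8% of the wild-type mean. Both sums were lower in both knockout libraries, and a two-sided exact permutation test gave p = 0.33 for each, the smallest value that 2 libraries against 2 allow.

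The first step is catalysed by the 2 synthases. Alas2, the erythroid synthase (gene ID 11656, chromosome X, 150547417 to 150570622), stood at 3721 and 4123 FPKM in wild-type cells and 2829.8 and 3136 FPKM in knockout cells. Both knockout libraries were lower than both wild-type libraries. Each knockout library held 76.1% of the level of the wild-type library of its number. The log2 change was −0.39 (SE 0.18, limma adjusted p = 0.486). Alas2 lies within the span of Apex2 in the gene table, and the labels do not say whether reads were counted by strand. Apex2, which encodes a DNA repair nuclease, stood at 15.3 to 20.1 FPKM in the 4 libraries.

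Alas1, the general synthase (gene ID 11655, chromosome 9, 106233455 to 106247954), stood at 10.6 and 11.7 FPKM in wild-type cells and 11.6 and 12.2 FPKM in knockout cells. The groups overlapped, and the log2 change was 0.09 (SE 0.14, limma adjusted p = 0.886). The level of Alas1 was 0.00284 and 0.00285 of that of Alas2 in the wild-type libraries and 0.00411 and 0.00389 of it in the knockout libraries. The ratio of the 2 synthases thus differed by 1.41-fold between genotypes and did not overlap.

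The cytosolic steps held the gene with one of the largest differences and the genes with some of the smallest. Alad, which encodes the enzyme that joins 2 molecules of 5-aminolevulinate into porphobilinogen (gene ID 17025, chromosome 4, 62505984 to 62520063), stood at 352 and 325 FPKM in wild-type cells and 235 and 159.9 FPKM in knockout cells. Both knockout libraries were well below both wild-type libraries, and they differed from each other more than the wild-type libraries did. The knockout mean of 197 ± 53.1 FPKM amounted to 58.3% of that of wild type, 339 ± 18.8 FPKM (SD, n = 2). The log2 change was −0.80 (SE 0.21, limma adjusted p = 0.26).

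Uros, which encodes the synthase that closes the uroporphyrinogen III ring (gene ID 22276, chromosome 7, 133686142 to 133710467), stood at 16.2 and 12.2 FPKM in wild-type cells and 14.6 and 10.15 FPKM in knockout cells. In each genotype library 2 was lower than library 1, and the genotypes overlapped (log2 change −0.20, SE 0.22, limma adjusted p = 0.831). Without knockout library 2 the log2 change of Uros was 0.04. Uros overlaps Bccip in the gene table, which stood at 11.9 to 16.8 FPKM, so the reads of the pair may be shared.

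Urod, which encodes the decarboxylase that follows (gene ID 22275, chromosome 4, 116989965 to 116994436), was the steadiest member. It stood at 147.03 and 146.6 FPKM in wild-type cells and 139.8 and 142 FPKM in knockout cells. The groups did not overlap, but the knockout mean was 96.1% of the wild-type mean (log2 change −0.06, SE 0.12, limma adjusted p = 0.923).

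Of the last 3, mitochondrial, steps, the differences became smaller from Cpox to Fech. Cpox, which encodes coproporphyrinogen oxidase (gene ID 12892, chromosome 16, 58670208 to 58680391), stood at 311 and 268 FPKM in wild-type cells and 203 and 135 FPKM in knockout cells. As for Alad, the groups did not overlap and knockout library 2 was the lowest of the 4. The knockout mean of 169 ± 48.3 FPKM amounted to 58.5% of that of wild type, 289 ± 30.6 FPKM (SD, n = 2), and the log2 change was −0.79 (SE 0.22, limma adjusted p = 0.28). Without knockout library 1, so that the lone knockout library is assumed to vary like the wild-type pair, Alad and Cpox passed, with log2 changes of −1.08 and −1.09 (limma adjusted p = 9.1e-05 and 4.42e-05). In that comparison 720 genes passed, 6.86% of those tested. Without knockout library 2 the log2 changes were smaller, at −0.525 for Alad and −0.50 for Cpox.

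Ppox, which encodes protoporphyrinogen oxidase (gene ID 19044, chromosome 1, 171276991 to 171281193), stood at 212 and 210.3 FPKM in wild-type cells and 169 and 178 FPKM in knockout cells. Replicates lay close together and the groups were apart, with the knockout mean at 82.2% of the wild-type mean (log2 change −0.28, SE 0.13, limma adjusted p = 0.494). Transcripts assembled from the reads, 5 in number, are part of the Ppox value, as they are for Alas2, Alad, Cpox and Uros in smaller number.

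Fech, which encodes the ferrochelatase that inserts iron (gene ID 14151, chromosome 18, 64456542 to 64489098), stood at 289.6 and 324 FPKM in wild-type cells and 269 and 317 FPKM in knockout cells. The genotypes overlapped, and the knockout mean was 95.5% of the wild-type mean (log2 change −0.07, SE 0.15, limma adjusted p = 0.925). The log2 change of Fech was 0.01 when wild-type library 2 was left out and 0.05 when knockout library 1 was.

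**Figure D2:**
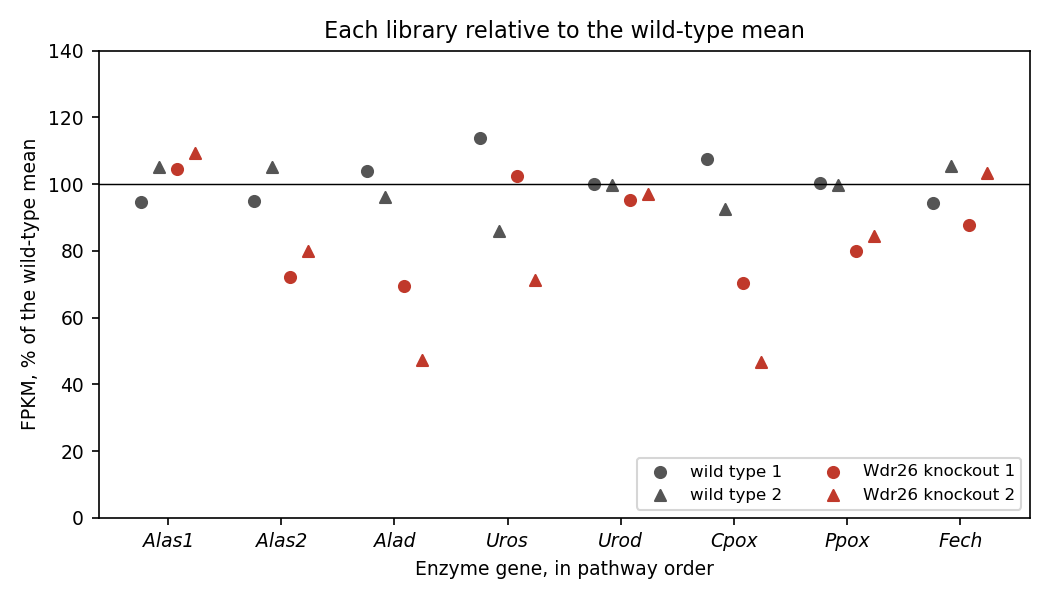
FPKM of each library as a percentage of the wild-type mean of the same gene, for the 8 enzyme genes in pathway order (grey wild type, red knockout, circles library 1, triangles library 2). The knockout points of Alad and Cpox lie lowest, those of Alas2 and Ppox lie below the wild-type points by less, and those of Alas1, Uros and Fech overlap them.

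Ratios between enzymes within a library do not depend on how libraries are scaled. Of the 28 pairs of members, which share genes and are therefore not independent, the ratio did not overlap between genotypes in 18 pairs. Among all pairs of genes with a mean of at least 10 FPKM, 40.7% did not overlap. Alad and Cpox kept nearly the same ratio to each other: Alad over Cpox was 1.13 and 1.22 in wild-type cells and 1.16 and 1.18 in knockout cells. Against Fech both were lower in knockout cells, with no overlap. Alad over Fech was 1.215 and 1.005 in wild-type cells and 0.873 and 0.505 in knockout cells. Cpox over Fech was 1.07 and 0.827 in wild-type cells and 0.756 and 0.427 in knockout cells. The ratio of Urod to Fech overlapped, at 0.508 and 0.453 in wild-type cells and 0.519 and 0.45 in knockout cells. Alas2 over Fech was 12.85 and 12.7 in wild-type cells and 10.5 and 9.91 in knockout cells, and these groups were apart.

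**Figure D3:**
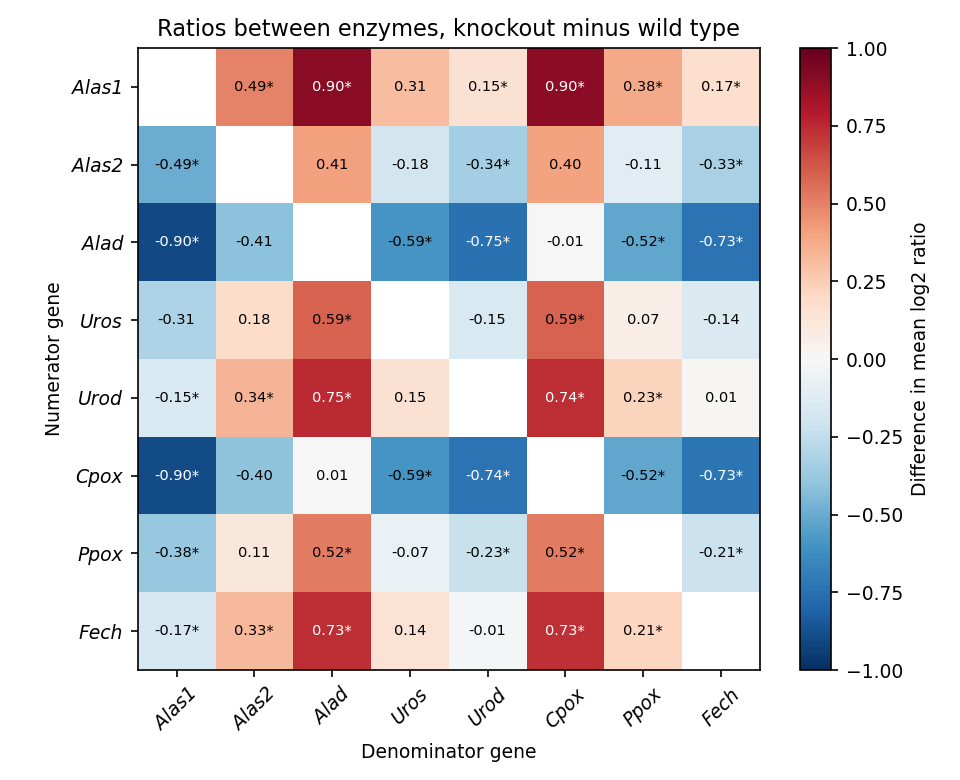
Difference between genotypes in the mean log2 ratio of each pair of enzyme genes (row over column), with red for a higher and blue for a lower ratio in knockout cells. An asterisk marks ratios that do not overlap between the 2 libraries of each genotype, and the Alad and Cpox rows are blue against every enzyme gene except each other.

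Among the 7 genes other than Alas2, Fech had a larger share of the summed level in knockout cells, and Alad and Cpox had smaller ones. Fech made up 21.6% and 24.9% of their summed FPKM in wild-type cells and 25.8% and 33.2% in knockout cells, and these shares did not overlap. Alad made up 26.3% and 25.1% in wild-type cells and 22.5% and 16.8% in knockout cells. Cpox made up 23.2% and 20.6% in wild-type cells and 19.5% and 14.2% in knockout cells. Shares sum to a whole, so a lower share of Alad and Cpox raises that of the others.

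Genes with the most similar profile over the 4 libraries were sought for 3 members among 5829 genes with a mean of at least 10 FPKM, by the root mean square difference of log2(FPKM + 1) deviations. For Alas2 they were Plcl2, a phospholipase C-like protein gene (0.026), Ranbp10, a paralogue of the CTLH subunit gene Ranbp9 (0.028), and Scd1, a stearoyl-CoA desaturase gene (0.031). Ranbp10 stood at 131 and 147 FPKM in wild-type cells and 97.2 and 114 FPKM in knockout cells. For Alas1 the nearest were Fam89b (0.0038), Zfp622 (0.0042) and the ribosomal protein gene Rpl23 (0.010). For Fech they were the small GTPase gene Rab10 (0.0061), the transporter gene Abca7 (0.019) and the GTPase gene Arl1 (0.020).

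Other genes around the pathway were taken from 6 lists with 52 tested genes, of which 0 passed the test over all genes (limma) and 4 had an unadjusted p under 0.05 (Slc6a9, Slc25a39, Ldb1 and Foxo3). These 4 are 7.69% of the tested genes, beside 11.4% of all genes in either direction, so taken in both directions this is no result about the related genes. Slc6a9, Slc25a39 and Foxo3 were lower in knockout cells and Ldb1 was higher. Among all genes, 2.4% had such a p and were lower. The counts of genes lower or higher in both knockout libraries that follow are to be read beside the 10.8% and 29.9% of all genes as deposited, and the counts with median-centred values beside 20.1% and 19.9%. Substrate supply comprised 9 genes, with 1 lower and 4 higher in both knockout libraries (2 and 4 when median-centred) and a median log2 change of 0.16. The lower one was Slc6a9, which encodes a glycine transporter. It stood at 73.8 and 61.8 FPKM in wild-type cells and 53.6 and 31.6 FPKM in knockout cells (log2 change −0.70, SE 0.26, limma adjusted p = 0.391). As for Alad and Cpox, knockout library 2 was the lowest. The groups were apart in the other direction for Suclg1, a succinyl-CoA ligase subunit gene, at 37.4 and 32.2 FPKM and 46.8 and 39.5 FPKM (limma adjusted p = 0.547). Dlst, a subunit gene of the 2-oxoglutarate dehydrogenase complex, stood at 70.6 and 66.9 FPKM in wild-type cells and 82.9 and 75.2 FPKM in knockout cells, again higher in both (limma adjusted p = 0.663).

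Among 10 genes of mitochondrial import and porphyrin transport, 3 were lower and 2 higher in both knockout libraries (4 and 1 when median-centred), with a median of −0.03. Slc25a39, a mitochondrial carrier gene linked to glutathione import, stood at 219.9 and 199.9 FPKM in wild-type cells and 139.6 and 120.2 FPKM in knockout cells. It was lower in both by a similar factor, with the knockout mean at 61.9% of the wild-type mean (log2 change −0.69, SE 0.15, limma adjusted p = 0.195). Slc25a37, which encodes the erythroid iron importer mitoferrin-1 and is named beyond the rule because of its role, differed between library numbers as much as between genotypes. It stood at 234 and 102 FPKM in wild-type cells and 108 and 41.3 FPKM in knockout cells, and the groups overlapped. Abcb10, a mitochondrial transporter gene, averaged 253 ± 11.1 FPKM in wild-type cells and 232 ± 3.30 FPKM in knockout cells, and Tmem14c, a porphyrin transport gene, 288 ± 25.0 and 317 ± 34.0 FPKM (SD, n = 2). Tspo2, an erythroid relative of the translocator protein gene Tspo, stood at 4.75 and 3.87 FPKM and 5.9 and 5.01 FPKM. None of these differences passed the test.

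The transcription factors linked to heme enzyme genes were 9, of which 4 were lower and 3 higher in both knockout libraries (4 and 2 when median-centred), with a median of −0.05. Gata1 stood at 462 and 489 FPKM in wild-type cells and 525 and 451 FPKM in knockout cells, so the groups overlapped. Its partner genes Zfpm1 and Ldb1 were higher in both knockout libraries, Zfpm1 at 335 and 359.5 FPKM against 397 and 406 FPKM and Ldb1 at 145 and 145 FPKM against 180.3 and 190.01 FPKM (limma adjusted p = 0.648 and 0.387). With median-centred values the groups overlapped for Zfpm1 and stayed apart for Ldb1. Foxo3, a forkhead factor active in late erythroid cells, was lower in both, at 191 and 185 FPKM against 124 and 133 FPKM (log2 change −0.54, SE 0.13, limma adjusted p = 0.236).

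Post-transcriptional control of the synthases was represented by 6 genes, of which 1 was lower and 0 were higher in both knockout libraries (1 and 0 when median-centred), with a median of 0.05. The lower one, by a small margin, was Clpx, whose mitochondrial unfoldase acts on ALAS protein, at 13.25 and 13.09 FPKM against 12.6 and 12.3 FPKM (limma adjusted p = 0.903). The protease gene Lonp1 averaged 54.7 ± 5.91 and 50.7 ± 2.74 FPKM, and Aco1, which encodes iron regulatory protein 1, 18.7 ± 2.27 and 20.1 ± 1.84 FPKM (SD, n = 2), both overlapping.

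Downstream of the pathway, 13 of 14 genes of heme use, export and breakdown were tested, of which 2 were lower and 6 higher in both knockout libraries (3 and 2 when median-centred), with a median of 0.09. Slc48a1, a heme transporter gene, stood at 80.6 and 99.6 FPKM in wild-type cells and 102 and 131 FPKM in knockout cells, and Hmox2, the constitutive heme oxygenase gene, at 24.01 and 22.8 FPKM and at 29.6 and 28.4 FPKM. Both were higher in both knockout libraries without passing (limma adjusted p = 0.539 and 0.461), and with median-centred values the groups overlapped for Slc48a1. Blvrb, a biliverdin reductase gene, overlapped at 335 and 321 FPKM and 362 and 272 FPKM. Among 5 heme-sensing regulators, 1 lay below wild type in both knockout libraries and 0 lay above (1 and 0 when median-centred), with a median of −0.04. It was Bach1, a heme-binding repressor gene, at 16.1 and 15.5 FPKM against 12.8 and 14.6 FPKM. Eif2ak1, the heme-regulated eIF2 kinase gene, averaged 93.1 ± 5.86 and 93.1 ± 7.72 FPKM, and Atf4 92.6 ± 9.56 and 89.2 ± 15.1 FPKM (SD, n = 2).

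**Figure D4:**
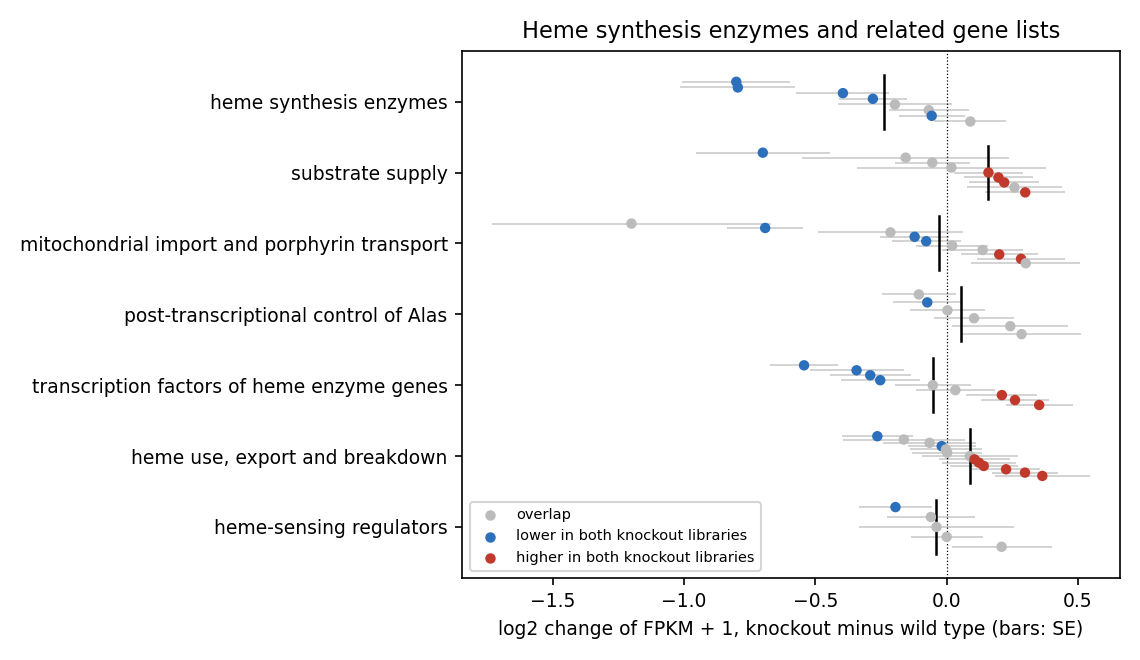
Log2 change of FPKM + 1 (knockout minus wild type) of every tested gene in the enzyme list and the 6 related lists, with standard errors as grey bars and list medians as black lines. Blue and red points are genes whose knockout libraries both lie below or both above the wild-type libraries, and the enzyme list has 5 blue and 0 red points.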

How the data were processed

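RNA from 2 wild-type and 2 Wdr26 knockout samples was sequenced, grouped by the sample titles. The authors deposited a single table of genes by libraries, without naming the unit. The deposited values were read as FPKM because, multiplied by transcript length, they summed to between 1.02e+09 and 1.03e+09 in each library, while the plain totals differed. The submitters' processing notes name TopHat2 and mm10 but give neither version nor role. Neither the quantifier nor the strand setting is given in the sources used here.

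The 10670 genes that reached 1 FPKM in 2 or more libraries were tested on log2(FPKM + 1) with limma 3.58.1 in R 4.3.3 (mean-variance trend, no covariates), with Benjamini-Hochberg adjustment over all of them and a threshold of 0.05. The pseudocount of 1 understates changes of low genes. Percentages of wild type are ratios of FPKM means. The procedure was run on simulated data with independent noise in each library. Same-numbered libraries of the real data correlated (Pearson r = 0.606), so the simulation does not cover that structure, and no result here rests on it. Flvcr1 and Flvcr2 were matched through RefSeq gene IDs. Promoter windows are RefSeq's (GRCm38.p6), and transcripts and lengths come from GENCODE M21. Tables and exact tests used pandas 2.3.3 and scipy 1.17.1.

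The members and lists were chosen with earlier results of these data known. Besides all 8 members, the rule named, per related pathway list, the 2 most abundant genes and up to 2 with the largest change whose groups did not overlap. Of the marker lists, 2 genes were left out and are not reported here. The markers named were picked after their values were seen. The alternatives were median-centred values, no filter, a mean of at least 5 FPKM, a pseudocount of 0.1, no trend, a replicate block, 11 globin genes left out, and each library left out. The counts of members and list genes under other scalings were chosen after seeing the data.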

Additional observations from a re-analysis of the deposited data

How the results depend on the processing

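The number of genes called in all, 10, moved to 0 without the filter on low values, 2 with a mean of at least 5 FPKM, 1863 with the replicate block and 21 with the globin genes left out. Leaving out single libraries gave 0 (without either wild-type library) to 720 genes. At an unadjusted p under 0.05 limma gave 1692 genes without the filter and 574 without each wild-type library, against 1218. The replicate numbers are not said to mark shared cultures: deviations of same-numbered libraries correlated across genes (Pearson r = 0.606 over 10670 genes), and in the fit with the block, which leaves 1 residual degree of freedom per gene, 2 members passed, Alad and Cpox (limma adjusted p = 3.35e-07 and 2.29e-07), where 17.5% of all genes did. The median log2 change of the members, −0.24, was −0.32 with median-centred values and −0.295 with the globin genes left out, and ran from −0.30 to −0.21 with single libraries left out. Signs turned in 3 of 88 recomputed member changes: for Uros when knockout library 2 was left out (0.044, range over single libraries −0.437 to 0.044), and for Fech when wild-type library 2 (0.011) or knockout library 1 (0.048) was left out (range −0.185 to 0.048). The causes were not tested. Another 81 kept their direction and their side of the threshold, and 4 passed, those of Alad and Cpox with the block and without knockout library 1.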

Other observations

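The enzyme genes also differed between the libraries numbered 1 and 2 within a genotype. On the log2(FPKM + 1) scale, library 2 minus library 1 was −0.11 in wild-type cells and −0.55 in knockout cells for Alad, −0.215 and −0.59 for Cpox, and −0.38 and −0.48 for Uros, so these 3 genes were lower in library 2 in both genotypes. It was 0.15 and 0.15 for Alas2, 0.16 and 0.23 for Fech and 0.14 and 0.06 for Alas1, which were higher in library 2 in both. For Urod and Ppox the differences were between −0.01 and 0.08. What the library number stands for is not given in the labels.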
